A study of Mus musculus with 6 samples.

Results

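The genes described here make cholesterol: Hmgcs1, Idi1, Fdps, Fdft1, Sqle, Lss and Cyp51 encode enzymes of its synthesis, and Srebf2 encodes the transcription factor that switches on such enzymes. They were chosen by gene symbol from knowledge of the pathway, with earlier results of these data known. Each of the 8 was found among the 15139 gene rows of the deposited expression table. All 8 passed the filter on low values, at least 1 FPKM in at least 2 libraries, as did 11365 genes in all. FPKM, a count of fragments divided by gene length and library total, is a level per length, so that genes can be set beside each other. None of the 8 is a receptor or carrier of cholesterol, and uptake genes are described after them as a list of their own.

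Cells build cholesterol from acetyl-CoA through the mevalonate pathway. Its first stretch ends in isoprenoid diphosphates, which also feed dolichol, ubiquinone and the lipid anchors of small GTPases, and its second stretch closes squalene into lanosterol and trims that to cholesterol. SREBP2, the product of Srebf2, is held in the endoplasmic reticulum while sterols are plentiful and travels to the Golgi to be cleaved when they run short. Blood cells in culture take up cholesterol from serum lipoproteins as well, and macrophages in particular store and export it.

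The samples were mouse bone marrow cells cultured in RPMI with 10% fetal bovine serum, 2 cytokines, IL3 at 10 ng/ml and SCF at 50 ng/ml, until RNA was taken at week 1. IL3 (interleukin 3) drives myeloid growth, and SCF (stem cell factor) is the ligand of Kit. The knockout (KO) cells were MxCre+v:Dnmt3a-/- and so carried a homozygous deletion of Dnmt3a, a de novo DNA methyltransferase. The wild-type (WT) cells were MxCre+v:Dnmt3a+/+, so both groups are labelled with MxCre, a recombinase gene under an interferon-inducible promoter that is not restricted to blood cells. The labels give neither the age of the mice nor how the recombinase was induced, and 1 label field calls the KO cells a knockdown. KO was measured in 2 libraries, replicates 2 and 3, and WT in 3 libraries. KO replicate 1 has labels but no column in the deposited expression table, so it was not analysed here.

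Dnmt3a itself stood at 2.58 and 3.42 FPKM in the KO libraries, against 6.68, 9.99 and 9.04 FPKM in WT replicates 1, 2 and 3. Sex was unbalanced: both KO libraries and WT replicate 1 held at most 0.02 FPKM of Xist, while WT replicates 2 and 3 held 14.4 and 15.3 FPKM. Genes of mast cells, neutrophils, macrophages and eosinophils were all measured, and the B cell list and the T cell list each stayed low, at no more than 0.47 and 0.72 FPKM summed per library. Over all tested genes, 22.1% changed between the genotypes (limma, adjusted p under 0.05), 13% lower and 9.08% higher in KO. Of the changed genes 41.2% were higher in KO, and 52.5% were higher after upper-quartile scaling. These are mixed cultures, so fewer cells of a type and less RNA per cell cannot be told apart.

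Promoters of the pathway are shown first because SREBP2 acts through them: it binds sterol regulatory elements and works with NF-Y, which binds CCAAT boxes, and with Sp1. RefSeq windows of GRCm38.p6, from 250 bases before to 50 after the gene start, were at hand for 5 of the 8 genes, Hmgcs1, Idi1, Lss, Cyp51 and Srebf2, and not for Fdps, Fdft1 and Sqle. Positions are counted from the start base, which is 0 (for Lss the table takes a start that differs from that of the gene annotation). Both strands were searched for TCACNCCAC (sterol regulatory element), CCAAT (NF-Y box), GGGCGG (Sp1 box) and CACGTG (E-box). An exact match to the sterol element was in 1 of the 5 windows, that of Hmgcs1 from -137 to -129, against 1.24% of 32851 windows of all genes. Stretches that differ from the pattern by a letter, such as TCACCCCAT in the Srebf2 window, were not searched. A window without a match is therefore not shown to lack the element. A CCAAT box was in 5 of 5 windows, against 37.4% of all windows, and an Sp1 box in 5 of 5, against 35.7%. None of the 5 held the E-box, which 7.15% of all windows held. Below are Hmgcs1, the enzyme gene with the exact match, and Srebf2, the gene of the regulator. Mvd and Sc5d are shown as well, from the 4 synthesis genes outside the 8 whose RNA fell in KO cells. The others, Pmvk and Acat2, are not printed. The Acat2 window held no CCAAT box, and of the 2 Pmvk windows 1 held a CCAAT box. Capitals mark the sterol element and the CCAAT boxes, read on either strand. The windows lie at chr13:119690101-119690400 (plus strand), chr15:82147019-82147318 (plus), chr8:122443373-122443672 (minus) and chr9:42264251-42264550 (minus), each printed 5′ to 3′ on the strand of its gene.
Hmgcs1 promoter: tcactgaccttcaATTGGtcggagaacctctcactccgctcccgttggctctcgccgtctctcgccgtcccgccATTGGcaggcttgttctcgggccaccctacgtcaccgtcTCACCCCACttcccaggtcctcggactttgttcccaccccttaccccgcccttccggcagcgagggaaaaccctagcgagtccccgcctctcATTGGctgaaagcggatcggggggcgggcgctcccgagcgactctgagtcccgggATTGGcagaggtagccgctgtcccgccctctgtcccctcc
Srebf2 promoter: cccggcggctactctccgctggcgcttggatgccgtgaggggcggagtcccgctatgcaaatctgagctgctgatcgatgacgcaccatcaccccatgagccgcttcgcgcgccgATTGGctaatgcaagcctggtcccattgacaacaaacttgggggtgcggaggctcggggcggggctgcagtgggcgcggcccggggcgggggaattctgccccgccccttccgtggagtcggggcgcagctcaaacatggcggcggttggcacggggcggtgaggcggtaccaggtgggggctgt
Mvd promoter: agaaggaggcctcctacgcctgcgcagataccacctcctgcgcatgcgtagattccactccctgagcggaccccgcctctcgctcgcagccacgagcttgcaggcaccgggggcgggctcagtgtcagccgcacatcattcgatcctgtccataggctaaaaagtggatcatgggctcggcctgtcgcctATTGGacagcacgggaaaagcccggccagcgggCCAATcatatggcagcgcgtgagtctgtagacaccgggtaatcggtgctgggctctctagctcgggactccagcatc
Sc5d promoter: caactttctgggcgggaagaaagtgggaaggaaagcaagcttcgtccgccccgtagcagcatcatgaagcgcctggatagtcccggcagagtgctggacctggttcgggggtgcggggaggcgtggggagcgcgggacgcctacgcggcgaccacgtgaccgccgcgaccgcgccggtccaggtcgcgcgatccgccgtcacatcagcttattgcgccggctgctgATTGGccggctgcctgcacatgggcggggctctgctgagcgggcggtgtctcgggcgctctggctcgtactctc

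In these windows the Hmgcs1 promoter held 4 CCAAT boxes on the minus strand, and the sterol element lay between the second and the third. The Srebf2 promoter held 1 CCAAT box and 5 Sp1 boxes. Among the other genes of the pathway lists, 14 of 16 had a window, 17 windows in all. No sterol element of these letters was in any of the 17, a CCAAT box was in 12 and an Sp1 box in 13. A match is a description of the letters and not of binding.

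Of the 8 genes, 2 fell in KO cells, none rose and 6 did not pass the test. That is 25% of the genes, near the 22.1% of all tested genes, so the count does not set the genes apart. The median log2 change of the 8 was -0.17, against -0.04 over all tested genes. Fdps and Fdft1, the enzymes that make farnesyl diphosphate and squalene, were those that fell. For 3 genes, Fdps, Fdft1 and Sqle, both KO libraries lay below every WT library, which held for 30.8% of all tested genes (51.1% had groups that did not overlap in either direction). With 2 against 3 libraries the smallest two-sided p of an exact permutation test is 0.2, so single genes were read from the fit across all genes.

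**Figure D1:**
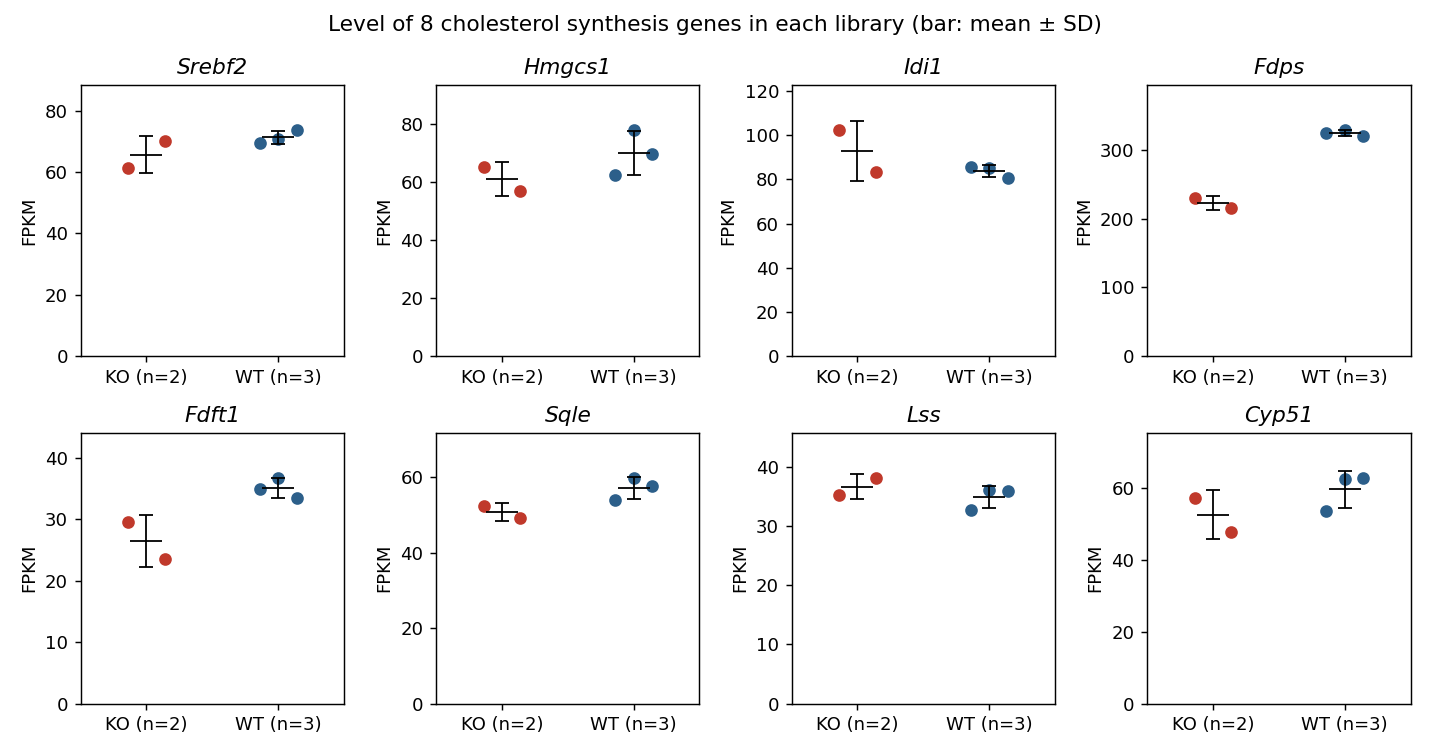
Level of each of the 8 genes in FPKM (vertical axes, from 0) in KO and WT libraries; each point is a library, and bars give the mean and SD (n = 2 KO, n = 3 WT). The KO points of Fdps, 229 and 215 FPKM, lie well below the WT points, 319 to 329 FPKM, while the points of Srebf2, Hmgcs1, Idi1, Lss and Cyp51 overlap.

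Srebf2 (gene 20788, chromosome 15 from 82147269 to 82205379, plus strand), the gene of SREBP2, had 61.4 and 69.95 FPKM in KO replicates 2 and 3, against 69.4, 70.8 and 73.6 FPKM in WT replicates 1, 2 and 3. KO replicate 2 was the lowest library and KO replicate 3 lay within the WT range. The log2 change was -0.12 ± 0.08 (SE; limma adjusted p = 0.345), with a 95% interval from -0.31 to 0.07. Srebf2 therefore did not pass, and the interval leaves room for KO levels between 0.807-fold and 1.05-fold those of WT.

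Hmgcs1 (gene 208715, chromosome 13 from 119690351 to 119708260, plus strand) encodes the cytosolic HMG-CoA synthase, an early enzyme of the mevalonate stretch. Its level was 64.99 and 56.8 FPKM in KO cells, against 62.4, 77.7 and 69.6 FPKM in WT cells. KO replicate 3 was the lowest library, and KO replicate 2 lay above WT replicate 1. Its log2 change of -0.19 ± 0.11 (95% interval -0.45 to 0.06; limma adjusted p = 0.258) did not pass.

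Idi1 (gene 319554, chromosome 13 from 8885606 to 8892396, plus strand) encodes the isomerase that turns isopentenyl diphosphate into dimethylallyl diphosphate, the starter unit for chain growth. Its level was 102 and 83.3 FPKM in KO cells, against 85.4, 85.1 and 80.5 FPKM in WT cells. KO replicate 2 stood above all others, and KO replicate 3 lay within the WT range. The log2 change was 0.14 ± 0.10 (95% interval -0.09 to 0.37; limma adjusted p = 0.355). The value turned on the KO library kept: without KO replicate 2 the change was -0.01 (adjusted p = 0.965), and without KO replicate 3 it was 0.29 and passed (adjusted p = 0.0438). The paralog Idi2 stood at 0.12 FPKM or less in every library.

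Fdps (gene 110196, chromosome 3 from 89093588 to 89101967, minus strand) encodes farnesyl diphosphate synthase, which builds the chain of 15 carbons at the branch point of sterols, dolichol, ubiquinone and protein prenylation, and is the target of nitrogen-containing bisphosphonates. It had 229 and 215 FPKM in KO replicates 2 and 3, against 324, 329 and 319 FPKM in WT replicates 1, 2 and 3. The KO libraries were the lowest, and the gap to WT was wider than the range within either group. The mean was 222 ± 10.1 FPKM in KO cells (SD, n = 2) and 324 ± 4.66 FPKM in WT cells (SD, n = 3), 31.4% lower in KO. The log2 change was -0.54 ± 0.07 (SE; 95% interval -0.71 to -0.37; limma adjusted p = 0.00237). The call held under each of 17 alternatives, with changes between -0.59 and -0.48 and adjusted p between 0.00136 and 0.0289, the last with sex as a covariate. The Fdps locus overlaps the gene model Gm43738 over 7512 bases on the same strand, and reads of the shared stretch cannot be told apart.

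Fdft1 (gene 14137, chromosome 14 from 63145150 to 63181687, minus strand) encodes squalene synthase, which joins 2 farnesyl diphosphates in the first step committed to sterols. It had 29.5 and 23.5 FPKM in KO cells, against 34.9, 36.7 and 33.5 FPKM in WT cells. Both KO libraries were below all WT libraries, and KO replicate 3 was the lower of the pair. The log2 change was -0.40 ± 0.11 (95% interval -0.65 to -0.15; limma adjusted p = 0.0361), and the mean was 24.3% lower in KO. This call was fragile: it was kept under 7 of 17 alternatives. Leaving out WT replicate 1, 2 or 3 ended it (adjusted p = 0.0802, 0.114 and 0.0718), as did leaving out KO replicate 3 (change -0.24, 0.106) or adding sex to the fit (0.171).

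The 3′ part of the Fdft1 locus also needs care. Fdft1 shares 774 bases with Ctsb on the opposite strand, the gene of the lysosomal protease cathepsin B. Ctsb had 252 and 207 FPKM in KO cells, against 433, 663 and 560 FPKM in WT cells, a log2 change of -1.25 ± 0.18 (limma adjusted p = 0.00321). The labels do not say whether counting used strand, and without it the reads of the shared stretch cannot be told apart. The part of Ctsb reads in the fall of Fdft1 was not tested.

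Sqle (gene 20775, chromosome 15 from 59315092 to 59331193, plus strand) encodes squalene epoxidase, the oxygen-using and often limiting step after squalene. Its level was 52.6 and 49.1 FPKM in KO cells, against 54.1, 59.9 and 57.7 FPKM in WT cells. Both KO libraries were lower than all WT libraries by a narrow gap. The log2 change of -0.17 ± 0.08 (95% interval -0.35 to 0.02; limma adjusted p = 0.176) did not pass.

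Lss (gene 16987, chromosome 10 from 76531565 to 76557139, plus strand) encodes lanosterol synthase, which folds epoxidized squalene into the sterol ring system. Its level was 35.2 and 38.2 FPKM in KO cells, against 32.8, 36.2 and 35.9 FPKM in WT cells. KO replicate 3 was the highest library, and the groups overlapped. The log2 change was 0.07 ± 0.08 (95% interval -0.12 to 0.26; limma adjusted p = 0.605).

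Cyp51 (gene 13121, chromosome 5 from 4080674 to 4104697, minus strand) encodes lanosterol 14-demethylase, the cytochrome P450 that is the counterpart of the fungal target of azole drugs. It had 57.3 and 47.7 FPKM in KO cells, against 53.5, 62.4 and 62.8 FPKM in WT cells. KO replicate 3 was the lowest library and KO replicate 2 lay above WT replicate 1. The log2 change of -0.18 ± 0.11 (95% interval -0.44 to 0.08; limma adjusted p = 0.287) did not pass.

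The order of the levels was much alike in both genotypes. Fdps was by far the highest in each library, ranked 376 to 385 of 11365 tested genes in KO cells and 278 to 287 in WT cells. Idi1 followed, with a range above those of all genes after it. Srebf2, Hmgcs1, Cyp51 and Sqle came next, and neighbours in that order had overlapping ranges in KO and in WT cells. Lss and Fdft1 were the lowest pair. Their ranges did not overlap in KO cells, with Lss higher at 36.7 ± 2.11 FPKM and Fdft1 at 26.5 ± 4.24 FPKM (SD, n = 2), but did in WT cells, at 34.96 ± 1.90 FPKM and 35.0 ± 1.62 FPKM (SD, n = 3).

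Set against Idi1 and against the sum of the 7 enzymes within each library, Fdps was lower in both KO libraries than in any WT library, which a common scaling of a library cannot alter. The ratio of Fdps to Idi1, the enzyme that makes one of its substrates, was 2.24 and 2.58 in KO replicates 2 and 3, against 3.80, 3.86 and 3.97 in WT replicates 1, 2 and 3. Fdps made up 40.2% and 41.9% of the summed FPKM of the 7 enzymes in KO cells, against 47.9% to 50.1% in WT cells. The sum of the other 6 enzymes was 342 and 299 FPKM in KO cells and 323 to 358 FPKM in WT cells, and these ranges overlapped. The ratio of Fdps to Fdft1, the next enzyme, was 7.77 and 9.15 in KO cells and 8.95 to 9.53 in WT cells, also overlapping. These ratios restate the levels above and carry no test of their own.

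**Figure D2:**
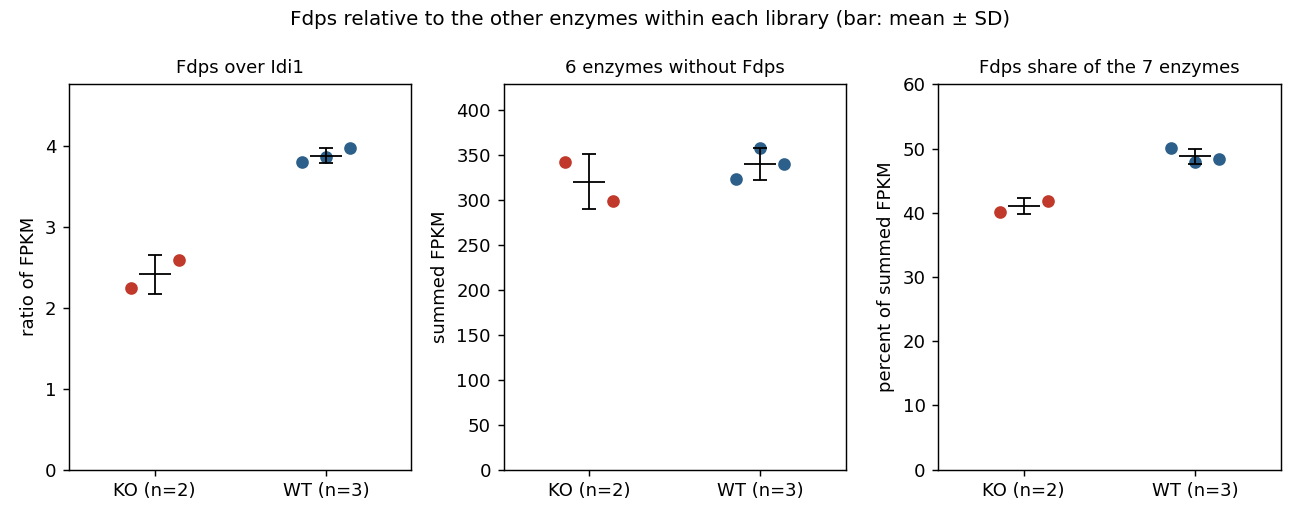
Ratio of Fdps to Idi1, summed FPKM of the 6 other enzymes, and share of Fdps in the summed FPKM of all 7 enzymes, by library (points), with the mean and SD (n = 2 KO, n = 3 WT); axes start at 0. The Fdps to Idi1 ratio is 2.24 to 2.58 in KO and 3.80 to 3.97 in WT cells, while the sums of the 6 other enzymes overlap.

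The 16 other genes of the synthesis lists, taken as 2 lists, gave a similar share of calls. They are counted as synthesis enzymes here, although Erg28 is a scaffold and Ggps1 leads off to geranylgeranyl diphosphate. Of the 16, 4 fell in KO cells, none rose and 12 did not pass. That is 25%, against 22.1% over all tested genes, with a median log2 change of -0.21, against -0.04. In the mevalonate stretch, Pmvk and Mvd fell, and with Fdps they were the 3 of 23 synthesis enzymes whose calls held under all 17 alternatives. Pmvk, phosphomevalonate kinase, had 26.98 and 25.6 FPKM in KO cells, against 39.98, 41.99 and 43.5 FPKM in WT cells, a log2 change of -0.65 ± 0.07 (limma adjusted p = 0.00125). Mvd, the decarboxylase that yields isopentenyl diphosphate, had 37.3 and 34.3 FPKM in KO cells, against 53.3, 57.1 and 56.7 FPKM in WT cells, a change of -0.62 ± 0.08 (adjusted p = 0.00156). For both genes the KO libraries lay far below the WT range. The Mvd locus overlaps the gene model Gm20388 on the opposite strand. Pmvk and Mvd act directly before Idi1, and Fdps directly after it.

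Acat2, the cytosolic thiolase that opens the route, fell by 0.31 ± 0.08 on the log2 scale (limma adjusted p = 0.0301), a call kept under 6 of 17 alternatives. Sc5d, a late desaturase, fell by 0.39 ± 0.08 (adjusted p = 0.0165), a call kept under 13 of 17. The adjusted p of Acat2 was 0.0553 and 0.0805 on leaving out KO replicate 2 or 3, and 0.0846 and 0.110 on leaving out WT replicate 2 or 3. That of Sc5d was 0.0588 on leaving out KO replicate 3, and 0.0561 and 0.0612 on leaving out WT replicate 2 or 3. Mevalonate kinase, Mvk, had a log2 change of -0.24 (limma adjusted p = 0.0819) and did not pass. Ggps1, which takes farnesyl diphosphate on to geranylgeranyl diphosphate, had 10.03 and 9.05 FPKM in KO cells, against 7.51 to 7.79 FPKM in WT cells (change 0.28, adjusted p = 0.0619).

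After lanosterol, no enzyme other than Sc5d passed. Msmo1, the C4 methyl oxidase, had a log2 change of -0.25 (limma adjusted p = 0.112), the isomerase Ebp one of -0.25 (0.0802, and 0.0221 on leaving out KO replicate 2) and the reductase Hsd17b7 one of -0.18 (0.232). Ebp lies on chromosome X, as does the dehydrogenase gene Nsdhl, and sex was unbalanced between the groups. With sex as a covariate, Ebp changed by -0.29 and Nsdhl by 0.12. In the main fit, the late reductase Dhcr7 (0.04, 0.794) and Nsdhl (0.01, 0.963) lay close to 0. So did the scaffold Erg28 (0.07, 0.642) and the sterol reductase Lbr (-0.05, 0.615). Tm7sf2, the other C14 reductase, was unsteady, with 3.89 and 1.77 FPKM in KO cells against 5.95, 7.93 and 1.60 FPKM in WT cells (-0.56 ± 0.51, adjusted p = 0.477). With single libraries left out, that change ran from -1.10 (adjusted p = 0.0416, without WT replicate 3) to -0.15 (0.906, without KO replicate 3).

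**Figure D3:**
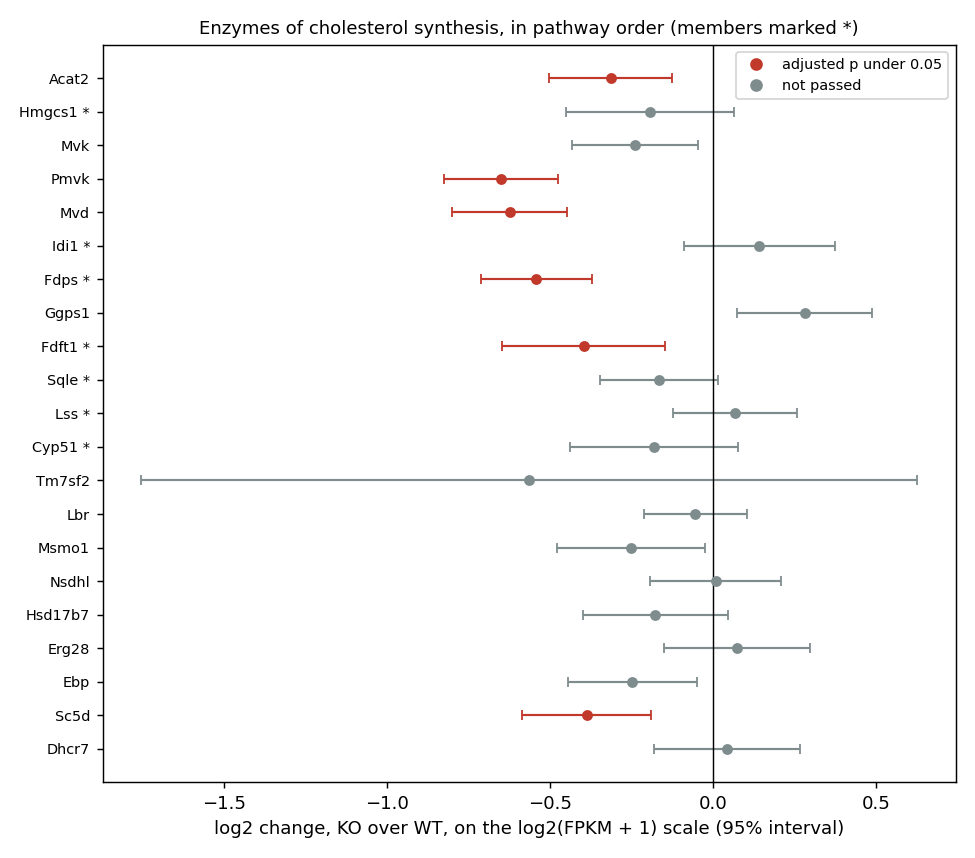
Log2 change of genes of the synthesis lists in pathway order from top to bottom, KO over WT on the log2(FPKM + 1) scale. Bars are 95% intervals from limma (2 KO and 3 WT libraries). Red points passed at an adjusted p under 0.05, and stars mark the 7 enzymes among the 8 genes. Pmvk, Mvd and Fdps are the lowest of the narrow intervals, at -0.65, -0.62 and -0.54, with Idi1 between them at 0.14.

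Of 9 tested genes on the list of SREBP control, which includes Srebf1, 0 passed (limma, with 2 at an unadjusted p under 0.05). Their median log2 change was -0.00. With 22.1% of all tested genes called, a list of this length holds few calls at the background rate, so the count does not set it apart. Insig1, the sterol-sensing anchor and itself a target of SREBP, had 57.5 and 64.2 FPKM in KO cells, against 58.98, 60.3 and 63.6 FPKM in WT cells (95% interval of the change -0.19 to 0.18; adjusted p = 0.982). Scap, the escort of SREBP, had a change of -0.05 (adjusted p = 0.763) and Insig2 one of 0.01 (0.963). The Golgi proteases Mbtps1 and Mbtps2, which cleave SREBP, had changes of 0.21 (0.164) and 0.27 (0.0955). For these genes both KO libraries lay above all WT libraries, and for Srebf1 and Ubxn8 both lay below. The groups did not overlap for 51.1% of all tested genes. Srebf1, whose products act more on fatty acid genes, had 34.4 and 38.3 FPKM in KO cells, against 42.1 to 43.1 FPKM in WT cells (-0.23, adjusted p = 0.0757), and passed without KO replicate 3 (-0.30, 0.0364). The ubiquitin ligase Rnf145 (0.03, 0.838) and the degradation cofactor Ubxn8 (-0.17, 0.253) did not pass.

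Among 16 genes of uptake and intracellular traffic, 14 were tested, 5 fell and none rose. That is 35.7%, against 22.1% called over all tested genes, and the median log2 change of -0.09 lay near the -0.04 of all genes. The endocytic receptor gene Lrp1 fell to 3.41 and 3.21 FPKM in KO cells, against 9.69 to 11.5 FPKM in WT cells (-1.46 ± 0.11, limma adjusted p = 0.000327). Lipa, the lysosomal acid lipase that frees cholesterol from lipoprotein esters, fell by 1.02 ± 0.15 on the log2 scale (0.00341), the HDL receptor gene Scarb1 by 0.50 ± 0.08 (0.00443) and the lysosomal exporter gene Npc1 by 0.42 ± 0.09 (0.0138). Npc2, which hands cholesterol to Npc1, did not pass (-0.09, 0.404). The fifth gene that fell was the scavenger receptor gene Cd36 (-0.95 ± 0.26, 0.0380), a call kept under 6 of 17 alternatives. Leaving out KO replicate 2 or 3 ended it (0.0692 and 0.187), as did leaving out WT replicate 2 or 3 (0.0901 and 0.0986). Npc1 lost its call when WT replicate 3 was left out (0.0542).

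Of 12 genes of efflux, esterification and the LXR receptors, 7 were tested, 4 fell and none rose (57.1%, against 22.1% called over all tested genes; median log2 change -0.45, against -0.04). The exporter genes Abca1 and Abcg1 fell by 1.04 ± 0.16 and 0.68 ± 0.10 on the log2 scale (limma adjusted p = 0.00410 and 0.00434). Soat1, which esterifies cholesterol for storage, fell by 0.69 ± 0.12 (0.00839) and the ester hydrolase gene Nceh1 by 0.45 ± 0.10 (0.0154). Nceh1 lost its call when KO replicate 2 (0.0502) or WT replicate 2 or 3 (0.0585 and 0.0519) was left out. Apoe (-0.23, 0.558) and Nr1h2, the broadly expressed LXR gene (-0.08, 0.574), did not pass.

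In fatty acid synthesis, the province of SREBP1, 14 of 15 genes were tested, 3 fell and 1 rose (28.6%, near the 22.1% called over all tested genes; median log2 change -0.21, against -0.04). The desaturase genes Scd1 and Scd2 fell by 0.55 ± 0.10 and 0.52 ± 0.09 on the log2 scale (limma adjusted p = 0.00878 and 0.00754), and Mid1ip1, an activator of acetyl-CoA carboxylase, by 0.47 ± 0.08 (0.00523). Me1, a malic enzyme that supplies NADPH, rose by 0.79 ± 0.18 (0.0225) at a low level, 2.04 and 3.35 FPKM in KO cells against 0.90, 1.18 and 1.25 FPKM in WT cells. Leaving out KO replicate 3 (0.118) or WT replicate 1 or 2 (0.0522 and 0.0514) ended that call. Elovl1 (-0.08, 0.461) and Acly (-0.21, 0.119) did not pass.

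**Figure D4:**
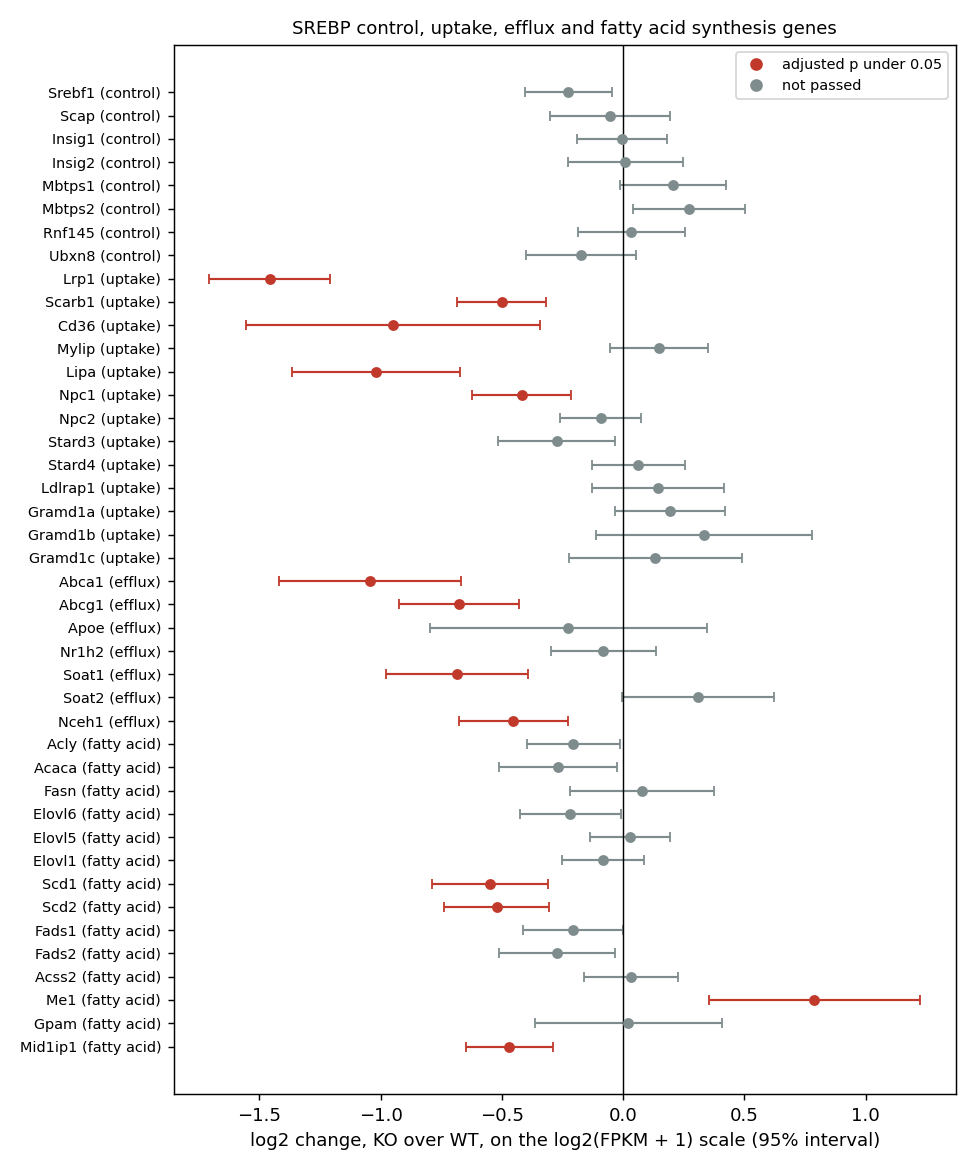
Log2 change of genes of SREBP control, uptake and traffic, efflux and esterification, and fatty acid synthesis, KO over WT on the log2(FPKM + 1) scale, with 95% intervals from limma (2 KO and 3 WT libraries); red points passed at an adjusted p under 0.05. No control gene passed, while Lrp1 (-1.46), Abca1 (-1.04) and Lipa (-1.02) are the lowest points that passed.

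Markers of several cell types moved with genotype, and their values stand beside these results. Over all tested genes, 22.1% were called, 13% lower and 9.08% higher in KO. Of 12 monocyte and macrophage markers, 10 fell, none rose, and their summed level was 1658 to 1939 FPKM in KO libraries and 5240 to 7174 FPKM in WT libraries. Of 12 neutrophil markers 11 fell, with sums of 12829 to 16656 FPKM in KO and 22434 to 33026 FPKM in WT libraries. Of 12 mast cell markers 9 rose, with sums of 28580 to 32745 FPKM in KO and 12158 to 13938 FPKM in WT libraries. Of 7 dendritic cell and MHC class II markers 6 were tested and all 6 fell, with sums of 155 to 311 FPKM in KO and 1589 to 2170 FPKM in WT libraries. Of 6 erythroid markers 3 fell (60.2 to 66.2 FPKM in KO, 84.8 to 87.6 FPKM in WT libraries). Among them Hba-a1 changed by -0.84, while Hbb-bs, at 0.34, did not pass. Of 5 basophil markers 3 rose, Cd200r3, Cyp11a1 and Gzmb (list sums 7517 to 7748 FPKM in KO, 5930 to 7470 FPKM in WT libraries). Mcpt8 (-0.22) and Prss34 (-0.06) did not pass, with negative estimates. Of 5 eosinophil markers 1 rose (20% called, sums 6990 to 9176 FPKM in KO, 5228 to 7647 FPKM in WT libraries). Of 10 proliferation genes 3 fell (30% called, against 22.1% of all tested genes), with sums of 622 to 645 FPKM in KO and 683 to 726 FPKM in WT libraries. No marker of these lists was at 0 in any library. Their part in the falls of Fdps, Pmvk, Mvd and the uptake and efflux genes was not tested, and Apoe is in both the macrophage and the efflux list.

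In the authors' deposited table, none of the 8 genes had an adjusted p under 0.05. The authors' deposited table gave Fdps a signed fold of -1.46 with an adjusted p of 0.995, and Fdft1 a signed fold of -1.32 with an adjusted p of 0.744. For all 8 genes the signed fold equals the ratio of the group means above to the digits shown, with a minus sign where KO is lower. What the authors' test took as input is not stated.

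The mean course of the 8 genes over the libraries was shallow. Their mean log2 level, centred on each gene's own mean, was -0.05 and -0.16 in KO replicates 2 and 3, and 0.01, 0.13 and 0.07 in WT replicates 1, 2 and 3. The KO libraries were below the WT libraries, and the distance between the KO pair exceeded the gap from KO replicate 2 to WT replicate 1. Outside the lists named here, the 5 genes with the smallest root-mean-square distance to that course over the 5 libraries were Atp6ap2 (0.0131), Cers5 (0.0158), Cpt2 (0.0178), Eif4g2 (0.0180) and Fam204a (0.0189). None of the 5 passed the test, with limma adjusted p between 0.104 and 0.188.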

How the data were processed

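Poly(A) RNA was read on an Illumina HiSeq, per the labels' protocols. Of tools, HISAT, edgeR and StringTie 1.2.1 appear in the submitters' processing notes, beside the build mm10, and the role of each is not stated. Per the file headers, the deposited table holds FPKM, the authors' signed fold (a score) and adjusted p-value, whose input is not stated. It has an FPKM column for each library analysed here and none for KO replicate 1. FPKM carry no read totals, so depth and counting error are unknown. FPKM summed to 560387 to 604368 per library.

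Here log2(FPKM + 1) was fitted with limma 3.58.1 in R 4.3.3, with genotype as the only term and a mean-variance trend. Genes at 1 FPKM or more in at least 2 libraries were tested, 11365 in all, and p-values were adjusted over all of them by Benjamini-Hochberg with a threshold of 0.05. Changes are KO over WT on the log2(FPKM + 1) scale, which understates low genes. The fit was tested on simulated data with known changes. No label ties replicates to separate animals, so the p-values reflect spread among libraries that may be technical. The genes and lists were chosen with earlier results of these data known, so no list is independent evidence. Synthesis and control genes are named, and of the other lists up to 4 that passed, by smallest p, and up to 2 that did not, by highest level. Some genes of the lists are not reported here by name or in figures but stay in the counts and medians. Erg28 was matched by its gene number. Positions and overlaps come from RefSeq and GENCODE M21 annotation of GRCm38, the build the notes call mm10.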

Additional observations from a re-analysis of the deposited data

How the results depend on the processing

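The 17 alternatives were pseudocounts of 0.1 and 0.5, no filter or one at 5 FPKM, 4 scalings, 2 variance models, sex as a covariate, the replicate block and each library left out. Fdps, Pmvk and Mvd kept their calls under all of them. The number of the 8 genes called lower was 1, in place of 2, with no filter on low genes, with upper-quartile, median-of-ratios or quantile scaling, without the mean-variance trend and with sex as a covariate. It was 1 to 2 with a library left out, and 1 on leaving out KO replicate 3 or any WT library. The number called higher was 0, and 0 to 1 with a library left out (Idi1, without KO replicate 3). Their median log2 change of -0.17 became -0.11 with upper-quartile scaling, -0.0932 with quantile normalization and -0.0599 with sex as a covariate, and ran from -0.25 to -0.11 with a library left out. Of 23 synthesis enzymes, 3 were called lower with sex as a covariate, in place of 6, and 3 to 6 with a library left out, 3 on leaving out KO replicate 3 or WT replicate 2. The number called higher was 1, Ggps1, with quantile, upper-quartile or median-of-ratios scaling, and 0 to 1 with a library left out. Genes called over the whole table numbered 1312 with sex as a covariate, which sets KO against WT replicate 1 alone, in place of 2507, and 1623 to 2659 with a library left out, the lowest without WT replicate 2. Adding sex also ended the calls of Acat2 and Sc5d (adjusted p = 0.244 and 0.165), of Scarb1, Soat1, Scd1, Scd2, Npc1, Nceh1 and Me1 (0.0558, 0.0760, 0.0804, 0.0763, 0.139, 0.145 and 0.0591), of Cd36 (0.178), and of Zmpste24 and Nus1 (0.0624 and 0.124). With sex as a covariate or a library left out, fewer libraries carry the comparison. Estimates moved as well when sex was added: Cd36 went from -0.95 to -0.39 and Lipa from -1.02 to -0.71. Others grew, Mid1ip1 from -0.47 to -0.56 and Pdss1 from -0.50 to -0.66. The cause of the changes in calls was not tested. No common pattern was seen for the shared replicate numbers: the differences between replicates 2 and 3 in WT and in KO cells correlated at 0.0421 across genes. A correlation of single differences cannot settle whether the libraries were paired. With the replicate block, 2058 genes were called, Fdps changed by -0.54, and Acat2, Zmpste24 and Pdss1 lost their calls (limma adjusted p = 0.0562, 0.0531 and 0.0645). WT replicate 1 has no KO library of the same number here. The block fit therefore gave the same log2 changes as the fit without WT replicate 1, such as -0.27 for Hmgcs1.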

Other observations

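Farnesyl diphosphate also feeds branches that do not end in sterols. Of 13 genes of these isoprenoid branches, 3 fell in KO cells and none rose (23.1%, against 22.1% of all tested genes; median log2 change -0.06). Ggps1 is counted both here and among the mevalonate enzymes. Zmpste24, the protease that trims farnesylated prelamin A, had 20.2 and 19.8 FPKM in KO cells, against 27.0, 26.7 and 24.99 FPKM in WT cells (-0.37 ± 0.07, limma adjusted p = 0.0120). Nus1, a subunit of the enzyme that starts dolichol, fell by 0.43 ± 0.09 on the log2 scale (0.0133), and Pdss1, which builds the side chain of ubiquinone, by 0.50 ± 0.11 (0.0203). With sex as a covariate Zmpste24 and Nus1 did not pass (0.0624 and 0.124). Without WT replicate 2, the adjusted p of these 3 genes were 0.0556, 0.0501 and 0.0514. Without WT replicate 3 that of Nus1 was 0.0538, and without WT replicate 1 or KO replicate 2 or 3 that of Pdss1 was 0.0531, 0.0645 and 0.0675. Fnta, the shared subunit of the prenyltransferases that attach farnesyl and geranylgeranyl groups (0.03, 0.797), and Rabggtb, of the enzyme that prenylates Rab proteins (-0.23, 0.406), did not pass.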
